A study of Homo sapiens with 95 samples.

Results

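The ERK feedback genes examined here were DUSP4, DUSP5, DUSP6, SPRY2, SPRY4, SPRED1, SPRED2, ETV4, ETV5 and PHLDA1. They were chosen by name as 10 of the 23895 gene symbols listed for every well, and all 10 were found. ERK is the last kinase of the RAS, RAF and MEK cascade, which growth factor receptors switch on. Active ERK induces genes whose products dampen the same cascade, so the mRNA of such feedback genes is widely used as a readout of ERK output. DUSP4, DUSP5 and DUSP6 are dual-specificity phosphatases that dephosphorylate ERK, in the nucleus for DUSP4 and DUSP5 and in the cytoplasm for DUSP6. SPRY2 and SPRY4 (Sprouty) and SPRED1 and SPRED2 act upstream and restrain the activation of RAS and RAF. ETV4 and ETV5 are ETS-family transcription factors induced by receptor signalling, and PHLDA1 is a pleckstrin homology-like protein whose mRNA rises with growth factor stimulation. In airway epithelium this cascade conveys signals from the EGF, FGF and neuregulin receptors.

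The genes were measured by 3′ digital gene expression (3′DGE), which counts unique molecular identifiers (UMIs) at the 3′ end of polyadenylated RNA, in 95 wells of the human bronchial epithelial line AALE, which is immortalized. Populations of these cells overexpressed NRF2 (the product of NFE2L2), FGFR1 (a receptor tyrosine kinase), NRG1 (a ligand of the ERBB receptors) or PIK3CA (the catalytic subunit of PI3-kinase). Their control overexpressed an empty vector holding the HcRed reporter. The CRISPR knockout populations were targeted at FAT1 (an atypical cadherin) or CDKN2A (which encodes the p16 and p14ARF cell cycle inhibitors), and their control, GFP, received the pSpCas9-EGFP plasmid PX458 with no guide RNA. Confluent cells of each population received the vehicle DMSO, 24 µg/ml of cigarette smoke condensate (CSC), 173 µM of the polycyclic hydrocarbon benzo[a]pyrene (BaP) or 490 µM of NNK, a nitrosamine of tobacco. Comparisons used the 82 wells with 1-digit replicate numbers, and tests used the 25 groups that held 3 such wells. The study calls the wells of a group biological replicates, and the labels do not say whether they were grown as separate cultures. The p-values rest on the spread between such wells, drawn largely from all genes and less from the gene tested. Each population is a single engineered derivative of 1 line.

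The 82 wells held 692446 to 1895735 UMI counts, and the 24 DMSO wells held 1168645 to 1792617. The 10 genes together took 0.00116% to 0.0125% of a well's counts, so most values below rest on few molecules. Under DMSO the targeted gene averaged 152 against 44.8 CPM (UMI counts relative to the well's total, scaled to 1000000) for NFE2L2, 22.9 against 4.05 for FGFR1, 108 against 0.258 for NRG1 and 11.9 against 2.17 for PIK3CA in its own population and in HcRed cells. FAT1 averaged 1.90 against 8.35 CPM and CDKN2A 21.4 against 36.7 CPM in the knockout and in GFP cells, although mRNA level is no direct check of an edit. Basal keratins and other basal markers summed to 332 to 935 CPM and epithelial markers to 368 to 642 CPM over the DMSO wells, and both differed between populations, as given beside the comparisons. CD3E, CDH5, COL1A2, PDGFRA, FOXJ1 and SFTPC, from lists of leukocyte, endothelial, fibroblast and differentiated airway or lung markers, were at 0 in all DMSO wells. Other markers on the same lists were not: CD68, a macrophage marker, was counted in 82 of 82 wells (mean 18.4 CPM) and PECAM1, of endothelium, in 65. Of the fibroblast markers, DCN was counted in 74 wells and COL1A1 in 50. The summed fibroblast markers were 6.46 to 15.8 CPM in NRG1 cells and 5.96 to 10.1 CPM in PIK3CA cells, against 0 to 7.62 CPM in the other 6 populations, and their part in the results below was not tested. Replicate 2 of NRG1 under NNK stood apart: its counts differed from those of its 2 partner wells with a chi-square per degree of freedom of 11.3 and 11.8, against 1.13 to 2.89 (median 1.43) for the other replicate pairs. The highest of the others, 2.76 and 2.89, set replicate 2 of CDKN2A under DMSO against its partners. Each plate row held 1 chemical and each population kept its place in the rows, so chemical cannot be told apart from row, nor population from position.

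The upstream sequence of DUSP6 and of PHLDA1 is shown because these 2 genes passed the tests both between populations and under CSC, as described below. DUSP4 also passed both, but no promoter window matched it. RefSeq promoter windows on GRCh38.p14 matched 6 of the 10 members in 9 windows (not DUSP4, DUSP5, ETV4 or ETV5), and each sequence covers the 250 bases before the annotated start, 5′ to 3′ on the gene's strand. Capitals mark the ETS core CCGGAA on either strand, the motif bound by ETS factors, the family of ETV4 and ETV5.
DUSP6, chr12:89352502-89352751, minus strand: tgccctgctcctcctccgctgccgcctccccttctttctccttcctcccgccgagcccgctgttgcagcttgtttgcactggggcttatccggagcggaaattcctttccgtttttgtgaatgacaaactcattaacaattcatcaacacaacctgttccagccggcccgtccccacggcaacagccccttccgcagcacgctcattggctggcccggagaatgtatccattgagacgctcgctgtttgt
PHLDA1, chr12:76031777-76032026, minus strand: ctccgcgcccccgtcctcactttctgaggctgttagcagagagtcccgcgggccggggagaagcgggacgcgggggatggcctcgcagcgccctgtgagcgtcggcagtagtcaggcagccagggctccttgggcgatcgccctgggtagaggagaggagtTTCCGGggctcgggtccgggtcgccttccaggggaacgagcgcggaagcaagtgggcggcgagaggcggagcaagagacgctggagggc
The core lay 89 bases before the PHLDA1 start and 142 bases before 1 of the 3 SPRY2 starts, and the other 7 windows, DUSP6 included, did not hold these letters. It stood in 14.5% of the 35116 windows of the same length. The AP-1 site TGANTCA and the cAMP element TGACGTCA, searched on both strands, stood in 0 of the 9 windows, against 6.57% and 1.65% of all windows. These matches describe letters in a window and say nothing of binding.

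Detection differed between members, and levels are compared only between wells of 1 gene. Of the 82 wells, PHLDA1 had a count in 82, DUSP4 and ETV5 in 81, DUSP6 and SPRED1 in 80, SPRED2 in 78, DUSP5 in 69, ETV4 in 61, SPRY2 in 54 and SPRY4 in 32. Mean counts per well ran from 9.93 for DUSP6 and 8.16 for PHLDA1 down to 1.26 for SPRY2 and 0.634 for SPRY4. Tests kept genes with a mean count above 1 over the wells compared, so SPRY4 entered 1 fit only and the other 9 members entered most. On hg19 the exons of DUSP6 (chr12:89741012-89746278) and PHLDA1 (chr12:76419227-76425556) overlap antisense transcripts that the count tables do not list. ETV4 (chr17:41605212-41656988) shares exonic bases with DHX8 on the other strand and ETV5 (chr3:185764103-185828107) with DGKG on the same strand, and whether counting used strand is not given in the sources used here. Those 4 levels are uncertain to that extent.

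Under DMSO the CDKN2A knockout cells carried the most ERK feedback mRNA by the sum of the members, which is weighted to the abundant ones, and the PIK3CA cells came next. The 10 genes summed to 62.9, 63.0 and 77.0 CPM in the CDKN2A wells and to 41.0, 47.7 and 57.6 CPM in the PIK3CA wells. Sums ran from 32.9 to 40.7 CPM in NRG1 cells and from 29.4 to 39.0 CPM in HcRed cells. GFP cells held 17.6 to 31.6 CPM, FGFR1 cells 19.4 to 27.3 CPM, NRF2 cells 18.1 to 24.5 CPM and FAT1 cells 11.6 to 21.5 CPM. Every CDKN2A well lay above every well of the other 7 populations, and every PIK3CA well above every well of the 6 others. These sums were not tested. Gene by gene, no tested member differed between CDKN2A and PIK3CA cells, and ETV4 and SPRY2 had lower means in CDKN2A cells. In these bulk wells, fewer cells of a kind and less RNA per cell cannot be told apart. A moderated F test in limma over the 8 populations called 6 of the 9 members tested, DUSP6, ETV5, DUSP4, ETV4, SPRED1 and PHLDA1, where 39.6% of all genes tested were called. The adjusted p was 3.61e-14 for DUSP6, 1.04e-05 for ETV5, 0.00276 for DUSP4, 0.0029 for ETV4, 0.0117 for SPRED1 and 0.0359 for PHLDA1. DUSP5 (adjusted p = 0.53), SPRED2 (0.679) and SPRY2 (0.997) did not pass. Without the wells numbered 1 the calls of DUSP4, ETV4 and PHLDA1 were lost (adjusted p = 0.144, 0.0971 and 0.196), and without those numbered 3 the calls of SPRED1 and PHLDA1 (0.449 and 0.581). DESeq2 called 3 members, with ETV4, PHLDA1 and SPRED1 lost.

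**Figure D1:**
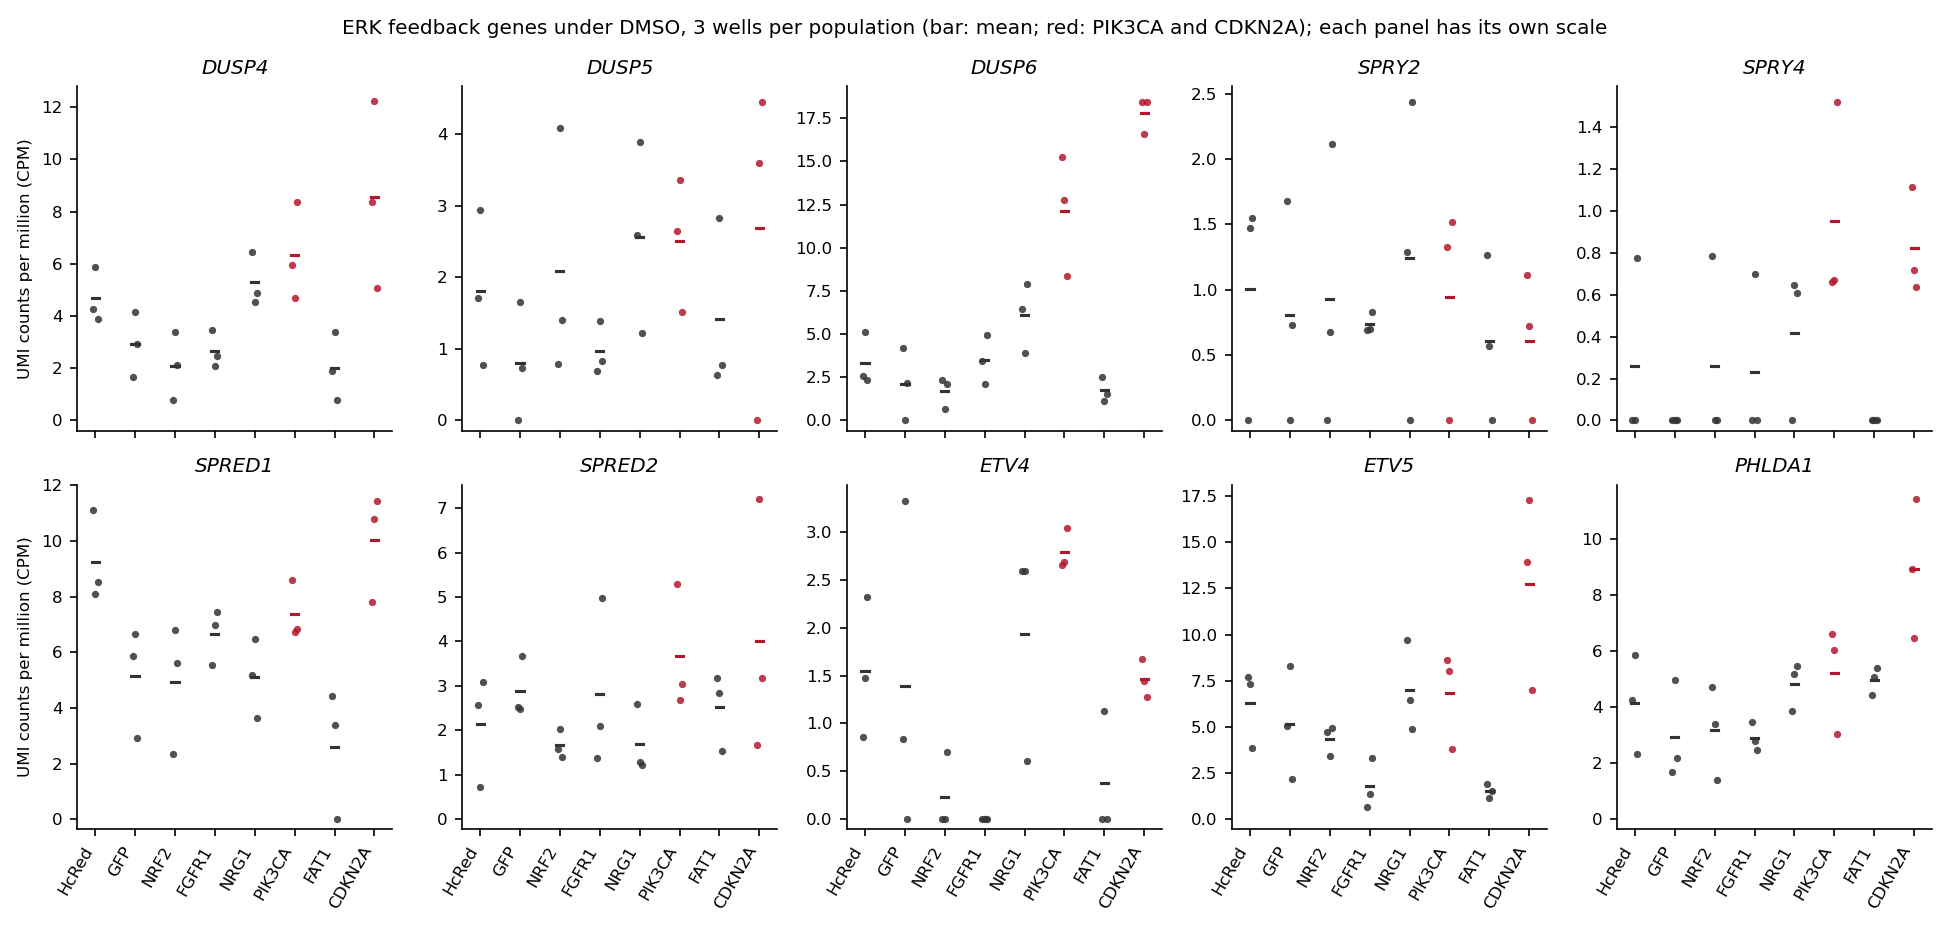
CPM of each ERK feedback gene (y axis, 1 scale per panel) in the 3 DMSO wells of 8 populations (x axis), with a bar at the mean and PIK3CA and CDKN2A in red. DUSP6 sat between 16.6 and 18.4 CPM in the CDKN2A wells and between 8.36 and 15.2 CPM in the PIK3CA wells, while SPRY2 showed no such order.

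DUSP6, the cytoplasmic ERK phosphatase, gave the widest separation of populations. Its level in the CDKN2A wells was 18.4, 16.6 and 18.4 CPM, and in the PIK3CA wells 15.2, 12.8 and 8.36 CPM. NRG1 cells followed at 6.46, 3.89 and 7.92 CPM. These 3 populations held the upper end, and the NRG1 wells overlapped the highest FGFR1, HcRed and GFP wells. FGFR1 wells held 3.46, 2.10 and 4.97 CPM and HcRed wells 2.57, 5.15 and 2.32 CPM. Below them were GFP at 4.20, 0 and 2.20 CPM, FAT1 at 2.54, 1.13 and 1.54 CPM and NRF2 at 2.36, 0.680 and 2.11 CPM. In 1 fit over the 24 DMSO wells, 13 of the 28 pairs of populations differed in DUSP6, where 10.5% of all tests of a gene in a pair were called (0.975% to 23.6% of genes per pair). CDKN2A cells exceeded the other populations in 6 of these pairs, all but PIK3CA, with the smallest called difference against NRG1 (log2 difference 1.36, adjusted p = 0.000907). PIK3CA cells exceeded HcRed, GFP, NRF2, FGFR1 and FAT1 cells, and NRG1 cells exceeded GFP and FAT1 cells. No neighbours in the order of means differed, from CDKN2A against PIK3CA (adjusted p = 0.336) down. CDKN2A cells exceeded the 3 other populations of their plate row (NRF2, NRG1 and FAT1), and PIK3CA cells the 3 others of theirs (HcRed, GFP and FGFR1). Both sat at the same end of their rows, PIK3CA in wells A10 to A12 and CDKN2A in wells B10 to B12. Population and column therefore cannot be told apart, and the part of position was not tested.

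DUSP4, a nuclear phosphatase induced by ERK, followed a similar order over a narrower range. The CDKN2A wells held 8.37, 12.2 and 5.09 CPM, the PIK3CA wells 5.96, 4.70 and 8.36 CPM and the NRG1 wells 6.46, 4.54 and 4.87 CPM. HcRed wells lay at 4.28, 5.88 and 3.87 CPM. GFP, FGFR1, NRF2 and FAT1 means were 2.92, 2.68, 2.10 and 2.02 CPM, with no well above 4.15 CPM. The lowest CDKN2A well therefore overlapped the PIK3CA, NRG1 and HcRed wells but not those of these 4 populations. Of 28 pairs, 5 differed, and they set CDKN2A above FAT1, NRF2, FGFR1 and GFP cells and PIK3CA above FAT1 cells, with log2 differences of 1.26 to 1.73. DUSP5, a nuclear phosphatase specific for ERK, spread as widely within populations as between them. Its CDKN2A wells held 0, 3.60 and 4.45 CPM and its GFP wells 0, 1.66 and 0.733 CPM, and 0 of 28 pairs differed.

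The Sprouty and SPRED genes, which act upstream at the level of RAS and RAF, showed less of this pattern. SPRY2 means ran only from 0.612 CPM in CDKN2A and FAT1 cells to 1.24 CPM in NRG1 cells, and 0 of 28 pairs differed, but at 0 to 4 counts a well a difference of this size was not detectable. SPRY4 under DMSO was counted in all 3 PIK3CA wells (0.662, 0.671 and 1.52 CPM) and all 3 CDKN2A wells (1.12, 0.720 and 0.636 CPM). It was at 0 in every GFP and FAT1 well, where the limit of 3 counts over a group allows 0.798 and 0.647 CPM, and in at most 2 wells of each other population. With so few counts it was not tested under DMSO. SPRED1 stood at 7.81, 10.8 and 11.4 CPM in CDKN2A cells, 11.1, 8.09 and 8.52 CPM in HcRed cells and 8.61, 6.71 and 6.84 CPM in PIK3CA cells. FAT1 cells held the least SPRED1, at 4.44, 3.40 and 0 CPM, below every well of those 3 populations. Only the pairs of FAT1 against CDKN2A, HcRed and PIK3CA differed, by 2.08, 2.06 and 1.85 on the log2 scale. These 3 of 28 pairs were a share near the 10.5% of all tests of a gene in a pair that were called. SPRED2 means ran from 1.67 CPM in NRF2 cells to 4.02 CPM in CDKN2A cells, the wells overlapped, and 0 of 28 pairs differed.

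The ETS factor ETV5 had its low end in FGFR1 and FAT1 cells, and ETV4 in FGFR1, NRF2 and FAT1 cells. ETV5 was at 13.9, 17.3 and 6.99 CPM in CDKN2A wells, 9.70, 6.48 and 4.87 CPM in NRG1 wells, 8.61, 8.05 and 3.80 CPM in PIK3CA wells and 7.70, 7.35 and 3.87 CPM in HcRed wells. FGFR1 wells held 0.693, 1.40 and 3.31 CPM and FAT1 wells 1.90, 1.13 and 1.54 CPM, below every well of the populations just named. Of 28 pairs, 9 differed in ETV5, each with CDKN2A, NRG1, PIK3CA or HcRed cells above FGFR1 or FAT1 cells, or with CDKN2A above GFP and NRF2 cells. ETV4 was highest in PIK3CA cells, at 2.65, 2.68 and 3.04 CPM. It had no count in the 3 FGFR1 wells, so the pooled PIK3CA level was at least 3.78-fold higher than the floor of 3 counts over that group, 0.735 CPM. NRF2 wells held 0, 0 and 0.704 CPM of ETV4 and FAT1 wells 0, 1.13 and 0 CPM. PIK3CA cells exceeded FGFR1 and FAT1 cells in ETV4, and CDKN2A cells (1.67, 1.44 and 1.27 CPM) exceeded FGFR1 cells, the 3 pairs of 28 that differed. For ETV4 that share was near the 10.5% of all tests of a gene in a pair that were called.

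PHLDA1 was also highest in CDKN2A cells, at 8.93, 6.48 and 11.4 CPM. PIK3CA wells (6.62, 6.04 and 3.04 CPM), FAT1 wells (4.44, 5.10 and 5.40 CPM) and NRG1 wells (3.88, 5.19 and 5.48 CPM) came next and overlapped one another. The lowest means were 2.95 CPM in GFP cells and 2.91 CPM in FGFR1 cells. CDKN2A cells exceeded FGFR1, GFP and NRF2 cells by 1.41, 1.41 and 1.31 on the log2 scale, the 3 of 28 pairs that differed. That share was near the 10.5% of all tests of a gene in a pair that were called. FAT1 cells, which held little DUSP6, ETV5 or SPRED1, were thus behind only CDKN2A and PIK3CA cells by mean PHLDA1.

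Each engineered population was next compared with its own control under DMSO. In CDKN2A knockout cells 3 of the 8 members tested were higher than in GFP cells, DUSP6, PHLDA1 and ETV5, where 17.9% of all genes were called and 8.64% were called higher. The log2 fold change was 3.30 ± 0.60 (SE) for DUSP6 (adjusted p = 7.94e-06), 1.46 ± 0.49 for PHLDA1 (0.0253) and 1.24 ± 0.41 for ETV5 (0.0227). All 8 tested members had a positive fold change, with a median of 1.05 against 0.03 over all genes. DUSP4 (1.30 ± 0.49, adjusted p = 0.0513) and SPRED1 (0.86 ± 0.40, adjusted p = 0.129) did not pass, although all their CDKN2A wells lay above all GFP wells. Wells did not overlap in that direction for 4 of the 8 members, DUSP4, DUSP6, SPRED1 and PHLDA1, and for 21.6% of all genes. The calls of ETV5 and PHLDA1 depended on single wells: ETV5 was lost without GFP replicate 3 (adjusted p = 0.302), CDKN2A replicate 1 (0.0762) or CDKN2A replicate 2 (0.0745), and PHLDA1 without GFP replicate 1 (0.117), GFP replicate 3 (0.126), CDKN2A replicate 1 (0.0503) or CDKN2A replicate 3 (0.0899). DUSP4 was called without CDKN2A replicate 3 (0.0178), while DESeq2 called DUSP6 alone. Marker sums moved in the same wells: basal markers summed to 408 to 522 CPM in CDKN2A against 531 to 668 CPM in GFP wells (KRT5 -0.72 and KRT14 -0.91 on the log2 scale, 2 of 6 lower), epithelial markers to 466 to 642 against 368 to 415 CPM, leukocyte markers to 13 to 14.6 against 4.20 to 12.5 CPM and endothelial markers to 2.16 to 3.18 against 0 to 1.68 CPM. Their part in the result was not tested.

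DUSP6 was higher in PIK3CA than in HcRed cells by 1.83 ± 0.43 on the log2 scale (adjusted p = 0.00309). This was 1 of the 9 members tested, where 5.4% of all genes were called and 3.36% were called higher. Every PIK3CA well lay above every HcRed well for DUSP6 and for ETV4, and 7.88% of all genes showed that. The median over the members was 0.41, against -0.02 over all genes. The 2 populations share a plate row. Basal markers summed to 348 to 450 CPM in PIK3CA against 815 to 850 CPM in HcRed wells. Of these 6 markers, 3 were lower (KRT17 -1.45, KRT14 -1.26 and KRT5 -0.90 on the log2 scale). Epithelial markers summed to 379 to 416 against 527 to 571 CPM, a sum weighted to the abundant ones. Gene by gene, 3 of the 5 epithelial markers were called higher in PIK3CA cells and 1 lower, with a median log2 fold change of 0.58. Leukocyte markers overlapped, at 17.5 to 26.5 against 12.8 to 20.1 CPM. Their part in the result was not tested.

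No member passed the limma test for NRF2, FGFR1 or NRG1 against HcRed cells, for FAT1 against GFP cells, or for GFP against HcRed cells under DMSO. The shares of all genes called were 4.91%, 0.914%, 3.08%, 14.1% and 10.8%. At an unadjusted p under 0.05 the counts were 1, 1, 1, 2 and 1 member, and edgeR also called 0 in each, while DESeq2 gave no member an adjusted p there. For FGFR1, the receptor upstream of this cascade, the median over 8 members was -0.44, DUSP6 differed from HcRed by 0.01 ± 0.55 and ETV5 by -1.80 ± 0.61 (adjusted p = 0.177). Every FGFR1 well lay below every HcRed well for DUSP4, SPRED1 and ETV5, against 7.1% of all genes, and the same held in NRF2 cells for DUSP4, SPRED1 and ETV4, against 13.5%. NRG1 cells had a DUSP6 log2 difference of 0.85 ± 0.47 (adjusted p = 0.43) and lay wholly below HcRed for SPRED1, against 12.4% of genes. FAT1 cells lay wholly below GFP cells for ETV5 (17.2% of genes), which passed the test without GFP replicate 3 (-1.86, adjusted p = 0.0262). GFP cells lay wholly below HcRed cells for SPRED1 (15.9% of genes).

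**Figure D2:**
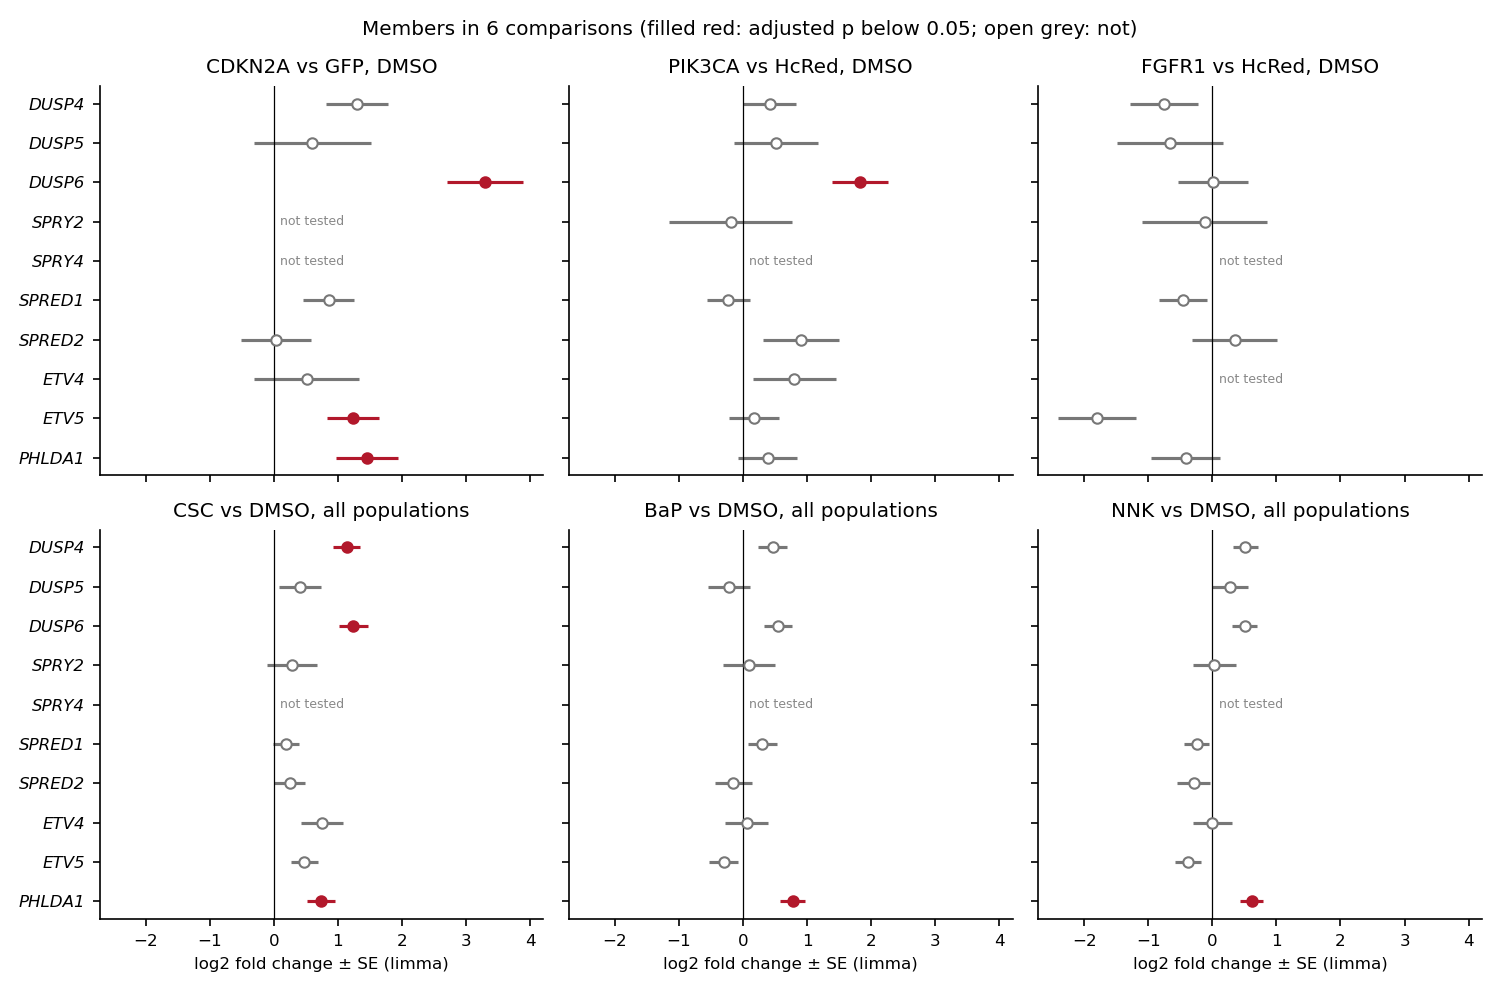
Log2 fold change with its SE (x axis) of each member (y axis) in 6 comparisons, filled red where the adjusted p in limma was below 0.05 and open grey where not. DUSP6 led in CDKN2A cells at 3.30 and in PIK3CA cells at 1.83, and PHLDA1 passed under CSC, BaP and NNK.

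More wells entered when each population was compared with its control across the chemicals that both had in 3 wells, with chemical as a covariate. PIK3CA cells again exceeded HcRed cells in DUSP6 (1.26 ± 0.25, adjusted p = 9.14e-05), and in SPRY4 (1.47 ± 0.49, adjusted p = 0.0354), 2 of 10 members where 13.2% of all genes were called and 7.21% were called higher. SPRY4, a Sprouty inhibitor, held 1.40, 3.91 and 3.15 CPM in PIK3CA cells under CSC and 0 in all 3 HcRed wells, and its call was lost without any 1 replicate number (adjusted p = 0.0746 to 0.244). NRF2 cells were lower than HcRed cells in DUSP6 (-1.16 ± 0.34, adjusted p = 0.0153) and PHLDA1 (-0.98 ± 0.32, 0.0334), 2 of 9 members where 10.7% of genes were called and 4.38% were called lower. These calls did not survive leaving out the wells numbered 3 (adjusted p = 0.305 and 0.372), and each was lost under 1 more number. FGFR1 cells were lower in ETV5 alone (-1.77 ± 0.46, adjusted p = 0.0113, and 0.46 without the wells numbered 1), 1 of 8 members where 3.29% of genes were called and 1.67% were called lower.

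FAT1 cells were lower than GFP cells in ETV5 (-1.18 ± 0.27, adjusted p = 0.000365) and SPRED1 (-1.10 ± 0.31, 0.00322) and higher in PHLDA1 (0.64 ± 0.23, 0.0241). These were 3 of 8 members, where 33.1% of all genes were called, 16.4% higher and 16.7% lower. KRT14 was lower in the same fit by a log2 change of -2.85, and its part was not tested. Without the wells numbered 1 the ETV5 and PHLDA1 calls were lost (adjusted p = 0.084 and 0.255), and PHLDA1 also without those numbered 2 (0.0529). GFP cells were lower than HcRed cells in DUSP4 (-1.42 ± 0.33, adjusted p = 0.000718), 1 of 9 members where 23.3% of genes were called and 11.8% were called lower. That share of members was near the share of all genes called lower. In NRG1 cells limma called 0 of 9 members where 0.422% of genes were called, with 1 member at an unadjusted p under 0.05 and 0 called by edgeR and, of 7 with an adjusted p, by DESeq2. That member, DUSP6 (1.24 ± 0.32, adjusted p = 0.0834), passed without the deviating NNK well, at 1.17 (adjusted p = 0.0153). Comparisons that used HcRed share its wells, and so do those that used GFP.

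DUSP6, DUSP4 and PHLDA1 were higher under cigarette smoke condensate across the 5 populations that had 3 wells under both CSC and DMSO. Under CSC, DUSP6 reached 24.5, 26.7 and 16.5 CPM in PIK3CA wells, 2.66, 11.3 and 21 CPM in HcRed wells and 10.8, 7.33 and 6.71 CPM in GFP wells. It stood at 3.08, 8.28 and 2.93 CPM in NRF2 wells and at 7.89, 2.29 and 3.69 CPM in FAT1 wells. The mean exceeded the DMSO mean in all 5 populations, and the wells did not overlap in PIK3CA, GFP and NRF2 cells. DUSP4 under CSC held 11.2, 13 and 15 CPM in PIK3CA, 6.65, 12.8 and 14.0 CPM in HcRed and 9.24, 9.79 and 5.13 CPM in NRF2 wells. FAT1 wells held 7.89, 3.43 and 4.22 CPM and GFP wells 3.59, 0.917 and 6.71 CPM. Again all 5 means lay above DMSO, and only GFP wells overlapped. For the chemicals, here and below, the share of all genes whose wells did not overlap was not counted. Overlap under a chemical is therefore given as description only.

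The log2 fold change under CSC was 1.24 ± 0.22 for DUSP6 (adjusted p = 3.13e-05), 1.14 ± 0.21 for DUSP4 (4.57e-05) and 0.73 ± 0.22 for PHLDA1 (0.0278). These were 3 of 9 members, where 5.81% of all genes were called and 2.95% were called higher. All 9 members had a positive fold change, with a median of 0.48 against -0.00068 over all genes. ETV4 (0.75 ± 0.33, adjusted p = 0.207) and ETV5 (0.48 ± 0.21, 0.203) did not pass. Both passed once the 2-digit wells were added as separate samples (0.0077 and 0.00896), a fit that also took in FGFR1, NRG1 and CDKN2A cells. PHLDA1 was lost without the wells numbered 1 (adjusted p = 0.118) or 3 (0.233) and without a filter on low counts (0.0817). HcRed replicate 3 held 20.1 CPM of PHLDA1 under CSC, against 7.98 and 4.51 CPM in its partners.

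Under BaP and under NNK, PHLDA1 alone passed among the 9 members tested, and it was higher. The fold change under BaP was 0.78 ± 0.19 on the log2 scale (adjusted p = 0.00411), where 9.16% of all genes were called and 5.04% were called higher, over 5 populations. Under NNK it was 0.62 ± 0.18 (adjusted p = 0.0176), where 7.22% were called and 3.07% were called higher, over 7 populations. The mean of PHLDA1 lay above DMSO in 5 of 5 and in 7 of 7 populations. Under BaP, NRG1 wells held 14.6, 12.1 and 12.3 CPM against 3.88, 5.19 and 5.48 CPM under DMSO, and FAT1 wells 12.6, 7.72 and 6.43 CPM against 4.44, 5.10 and 5.40 CPM. The wells did not overlap in these 2 populations. The BaP call was lost without the wells numbered 1 (adjusted p = 0.0693). The NNK call was lost without any 1 replicate number (0.0614 to 0.172) and with the 2-digit wells added (0.0696), a fit that also took in CDKN2A cells. It stayed without the deviating NRG1 well (0.51, adjusted p = 0.0267). DUSP6 and DUSP4 differed by 0.54 ± 0.22 and 0.46 ± 0.23 under BaP and by 0.50 ± 0.20 and 0.51 ± 0.19 under NNK, with adjusted p from 0.0962 to 0.215. The 3 chemical comparisons share DMSO wells. Of 6 basal markers, 2 were lower under CSC, 3 under BaP and 3 under NNK, where 1 was higher, with KRT14 at -0.87, -0.95 and -0.36 on the log2 scale, and their part was not tested.

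The chemical effect was then allowed to differ between populations. For CSC, BaP and NNK, limma called 0 of 9 members, where 0.106%, 0.106% and 0.0176% of all genes were called. At an unadjusted p under 0.05 the counts were 0, 1 and 1 member, and edgeR also called 0. DESeq2 called 0 of the 5 members with an adjusted p for CSC and of the 9 for NNK, and gave none an adjusted p for BaP. Under NNK, DUSP6 in NRG1 wells was 15.6, 23.7 and 12.4 CPM, all above the 3 DMSO wells. In PIK3CA wells it was 7.88, 11.6 and 8.97 CPM and in FGFR1 wells 0, 3.92 and 4.33 CPM, both overlapping DMSO. So the NRG1 wells lay above DMSO also without the deviating well, which held 23.7 CPM.

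**Figure D3:**
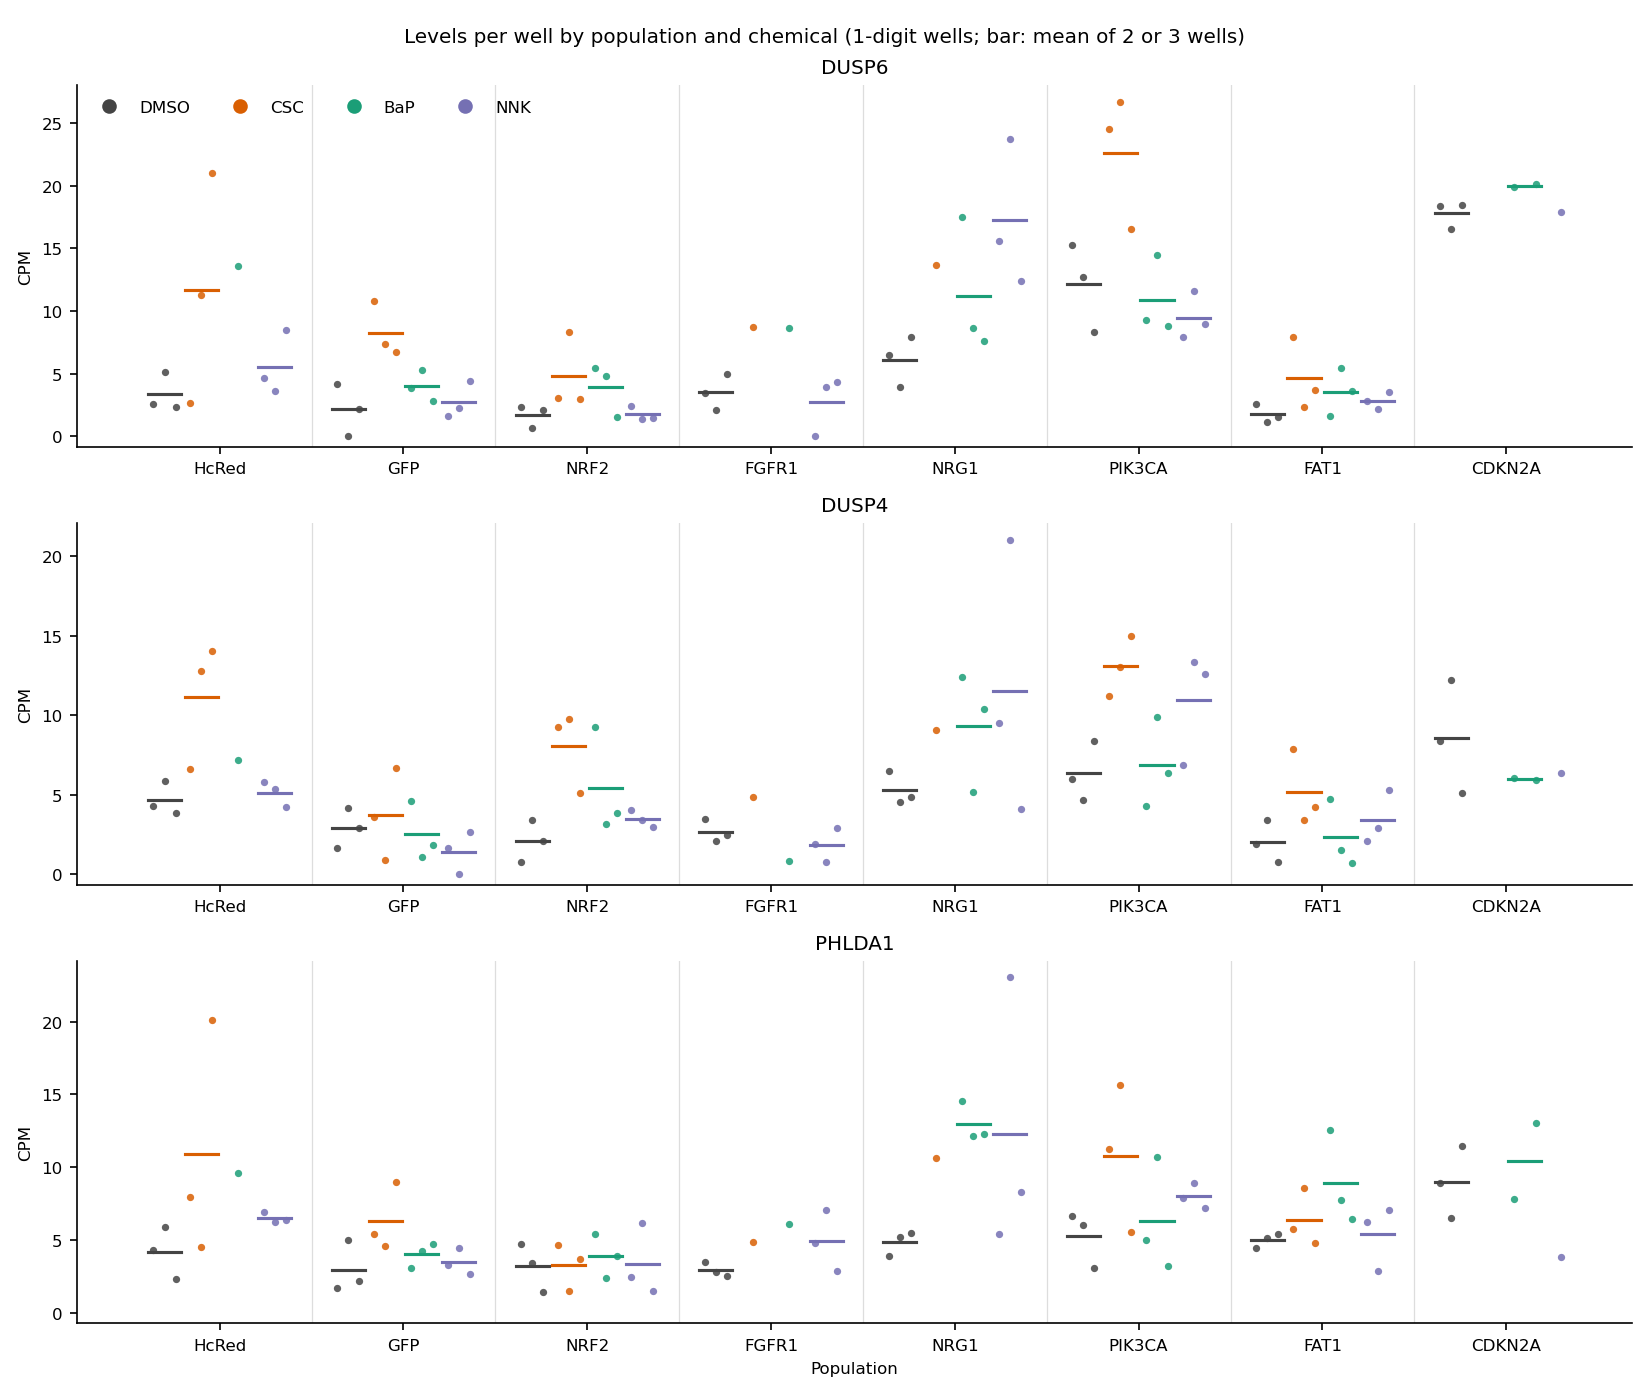
CPM of DUSP6, DUSP4 and PHLDA1 (y axis) in each 1-digit well, by population (x axis) and chemical (colour), with bars at the means of 2 or 3 wells. DUSP6 in PIK3CA wells reached 16.5 to 26.7 CPM under CSC, and the NRG1 well at 23.7 CPM under NNK is the one that stood apart.

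Groups with fewer than 3 one-digit wells entered no main test. CDKN2A cells held 19.9 and 20.2 CPM of DUSP6 in both 1-digit BaP wells and 17.9 CPM in the 1 such NNK well, while their NNK wells with 2-digit numbers held 13.8 and 9.42 CPM, below every CDKN2A DMSO well. FGFR1 cells had 8.73 CPM of DUSP6 in the 1 CSC well and 8.67 CPM in the 1 BaP well. NRG1 cells had 13.7 CPM in the 1 CSC well and HcRed cells 13.6 CPM in the 1 BaP well. All 4 of these single wells lay above the DMSO wells of their population. So did the 2-digit CSC wells of FGFR1 cells, at 10.8 and 9.07 CPM, and of NRG1 cells, at 20.6 and 24.2 CPM. Those of CDKN2A cells, at 17.2 to 23.0 CPM, overlapped the CDKN2A DMSO wells. The 2-digit BaP wells did not lie above DMSO, at 4.09 and 0 CPM in FGFR1 and 5.04 and 3.43 CPM in HcRed cells.

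Summed over the 10 genes, a measure weighted to the more abundant members, all CSC wells lay above all DMSO wells in each of the 5 populations with 3 wells of both. Means were 73.4 against 48.8 CPM in PIK3CA cells, 58.9 against 34.5 in HcRed, 42.3 against 24.2 in GFP, 36.4 against 21.5 in NRF2 and 34.0 against 17.8 in FAT1 cells. Under BaP the mean exceeded DMSO in 3 of 5 populations, with NRG1 cells at 63.1 against 36.2 CPM, and under NNK in 2 of 7. In NRG1 cells under NNK the sum was 125 CPM in replicate 2 and 45.4 and 38.8 CPM in the other two wells.

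**Figure D4:**
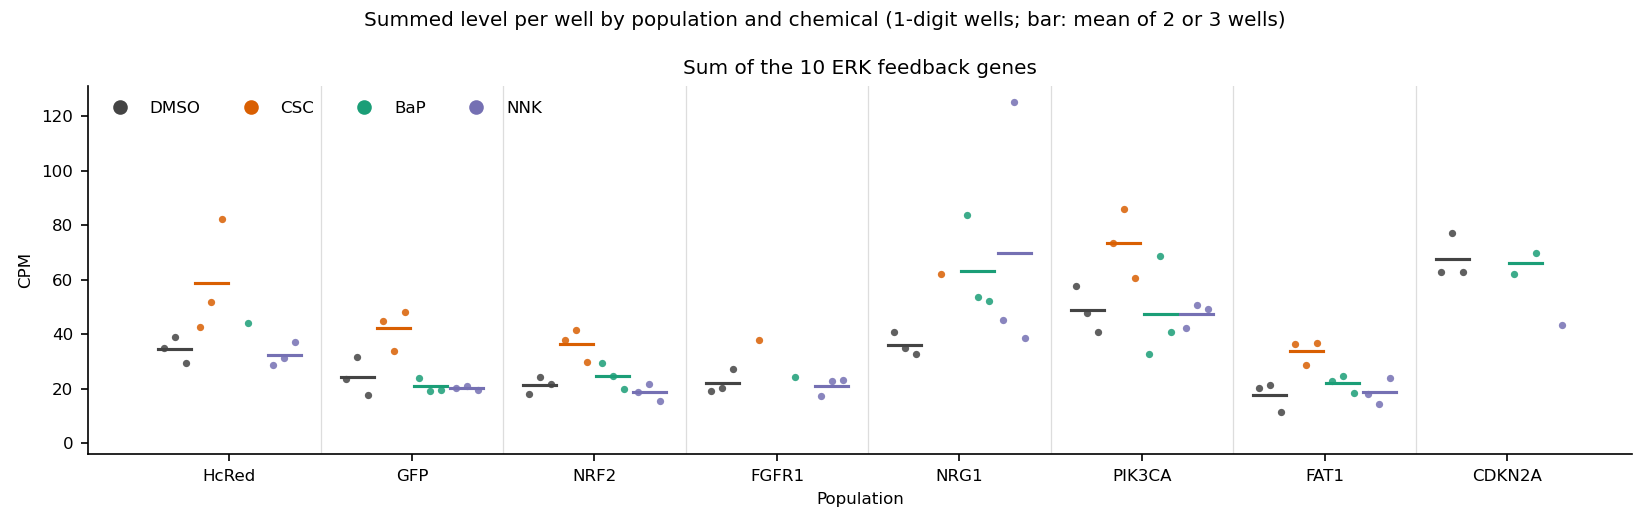
Sum of the 10 genes in CPM (y axis) per 1-digit well, by population (x axis) and chemical (colour), with bars at the means of 2 or 3 wells. CSC wells sat above DMSO wells in HcRed, GFP, NRF2, PIK3CA and FAT1 cells, and the highest well, at 125 CPM, is replicate 2 of NRG1 under NNK.

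Other genes of the pathway were read from lists that had been drawn up with earlier results of these data known. Among 12 tested genes that ERK also induces, 5 were higher in CDKN2A than in GFP cells, where 8.64% of all genes were, and 0 lower, led by AREG (amphiregulin, an EGF receptor ligand; 1.63 ± 0.17, adjusted p = 4.98e-13), CCND1 (cyclin D1; 2.03 ± 0.26, 3.44e-10) and EREG (epiregulin; 1.80 ± 0.39, 0.000217). Their median was 1.19, against 0.03 over all genes. In PIK3CA and in NRG1 cells under DMSO 1 of the 12 was higher than in HcRed, AREG in both (0.78 ± 0.11 and 0.74 ± 0.11), with 5.4% and 3.08% of all genes called. NRF2 cells were lower than HcRed in 2 of 11, with 4.91% of all genes called, and FAT1 cells higher than GFP in 1 of 12, a share below the 14.1% of all genes called. In FGFR1 cells CCND1 alone passed, lower by a log2 change of -1.76 ± 0.24, with 0.914% of all genes called. GFP cells were lower than HcRed cells in 4 of 12, with 10.8% of all genes called, led by AREG (-1.22 ± 0.15) and CCND1 (-1.93 ± 0.25). The CDKN2A knockout was thus set against a control that itself held less AREG and CCND1 than HcRed cells.

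Under CSC 8 of these 12 genes were higher, under BaP 9 and under NNK 6, with 0 lower in each, where 2.95%, 5.04% and 3.07% of all genes were higher, and medians were 0.88, 0.82 and 0.52 against -0.00068, 0.01 and -0.01 over all genes. EGR1, an immediate early transcription factor, changed by 1.52 ± 0.13, 1.53 ± 0.13 and 1.92 ± 0.12, and AREG by 1.54 ± 0.06, 0.96 ± 0.06 and 0.92 ± 0.06. Of 8 tested relatives of the members, 1 was higher under each chemical, the stress-inducible phosphatase DUSP1 (1.08 ± 0.11, 0.95 ± 0.12 and 0.98 ± 0.10). DUSP1 was also higher in CDKN2A than in GFP cells (1.58 ± 0.35, adjusted p = 0.000275), as was ETV1, of the same subfamily as ETV4 and ETV5 (1.30 ± 0.44, 0.0277). These were 2 of 9 relatives, where 8.64% of all genes were called higher. Of 17 tested components of the cascade itself, such as receptors, RAS and RAF, 0 passed under CSC, with 2 at an unadjusted p under 0.05. Under BaP 2 were lower and under NNK 2, where 9.16% and 7.22% of all genes were called in either direction. In CDKN2A cells 2 of 17 were higher, SHC1 and NRAS, and 2 lower, ARAF and HRAS, a share near the 17.9% of all genes called. Of 9 tested kinases and factors downstream of ERK, 0 passed under each chemical and 1 was higher in CDKN2A cells, the ETS factor ELK4 (0.79 ± 0.29, adjusted p = 0.0478). That share was near the 8.64% of all genes called higher.

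Across the 25 groups with 3 wells, the mean levels of members were related to different degrees, given here as a description without a test since groups share plate, populations and chemicals. The closest pair was DUSP4 and DUSP6 (Pearson r = 0.84), followed by DUSP6 and PHLDA1 (0.75) and DUSP4 and ETV4 (0.74), and the loosest was SPRY4 and SPRED2 (0.20). Over 7509 genes with a mean count above 5, a limit chosen after seeing that no member reached a mean of 10, TMEM156 came closest to both DUSP4 (r = 0.91) and DUSP6 (r = 0.89). SLC20A1 (0.88) and AREG (0.85) came next for DUSP4, and UPP1 (0.87) and INO80C (0.86) for DUSP6. PTHLH (0.86) was closest to PHLDA1, FMNL2 (0.88) to SPRED1 and DDX18 (0.87) to ETV5.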

How the data were processed

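Gene-level 3′DGE counts of 95 wells were used as deposited: raw UMI counts per gene symbol, not normalized. According to the methods, the authors received these counts from the Broad Institute, after BWA 0.7.10 alignment to RefSeq transcripts of hg19, with each UMI counted once per gene and well; reads shared between near-identical copies could not be recovered from them. Reads come from 3′ ends, so isoforms were not separated. CPM was each count over the well's total (692446 to 1895735 counts in the 82 wells compared), times 1000000.

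Groups came from the titles. The 13 wells with 2-digit replicate numbers entered alternatives only, since the labels do not say whether they were separate cultures. Tests used limma 3.58.1 with voom weights and TMM factors from edgeR 4.0.16 (R 4.3.3) on the compared wells, over genes with a mean count above 1, two-sided, with Benjamini-Hochberg adjustment over all genes tested and a threshold of 0.05. Several coefficients were tested by a moderated F. Fits across chemicals held chemical, and chemical fits population, as a covariate. TMM factors were 0.872 to 1.35. Variances were shrunk towards a value shared by all genes. The prior degrees of freedom were 23.4 to 113, and infinite for FGFR1 against HcRed under DMSO. The p-values therefore rest more on the spread of other genes than on that of the gene tested. The edgeR quasi-likelihood test and DESeq2 1.42.0 were alternatives. The fits were tested on simulated data.

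The members and lists were chosen with earlier results of these data known. Named were all members, the targeted genes and at most 3 higher and 3 lower genes per list and comparison. Likeness was ranked by Pearson r over group means. Floors of 3 counts cover counting error only.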

Additional observations from a re-analysis of the deposited data

Results flagged for a closer look

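The wells with 2-digit replicate numbers, which entered alternatives but no main comparison, held CSC wells above the DMSO range in FGFR1 and NRG1 cells, though not in all of the CDKN2A wells. The 10 feedback genes summed to 43.9 and 49.0 CPM in the 2 such wells of FGFR1 cells under CSC, above the highest FGFR1 DMSO well (27.3 CPM). In NRG1 cells under CSC the 2 such wells held 77.9 and 78.8 CPM, above the highest NRG1 DMSO well (40.7 CPM). The 1-digit CSC wells of these populations held 37.8 and 62.2 CPM. These sums were not tested. Beyond replicate pairs and fits that left out wells, groups of 3 were too small for a further check of single outlying wells.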

How the results depend on the processing

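The number of members called moved by over 1.5 times, or to or from 0, in 11 of the recounts that kept all replicates, and no called fold change changed sign. DESeq2 called 3 instead of 6 members over the 8 populations under DMSO, 1 instead of 3 for CDKN2A against GFP and 1 instead of 2 for PIK3CA across chemicals, where it gave SPRY4 no adjusted p. For 8 comparisons it gave no member an adjusted p and no count. A mean count above 10 also gave 1 for PIK3CA across chemicals, with 2 members left, and left no member in 15 comparisons. Without a filter on low counts NRF2 across chemicals had 1 instead of 2, and edgeR called 2 instead of 1 for GFP against HcRed across chemicals. With the 2-digit wells added, as 95 separate wells or summed per group, CSC had 5 instead of 3 and NNK 0 instead of 1, and BaP had 2 instead of 1 when they were summed. Those fits also took in populations that the main fits left out. Median-ratio size factors moved no count by that much. The cause of these moves was not tested.

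Leaving out wells gave 3 to 6 members over the 8 populations, 1 to 3 for CDKN2A, 0 to 1 for FAT1 under DMSO and 1 to 3 across chemicals, 0 to 1 for FGFR1, NRG1, NRF2 and BaP, 0 to 1 for NNK, 1 to 2 for GFP against HcRed across chemicals and 1 for PIK3CA.

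Replicate numbers did not pair the wells: deviations of same-numbered wells correlated from -0.11 to 0.11 (median 0.013), and in 0 of 24 comparisons did every pair exceed 0.1. With the replicate number as a block, 5 instead of 6 members were called over the 8 populations and 4 instead of 3 for CDKN2A, and the other counts did not change. All 10 members averaged under 10 counts a well, which limits the precision of every value.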

Other observations

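CDKN2A knockout cells had no 1-digit well under CSC, and their 3 wells with 2-digit numbers summed to 61.2 to 88.7 CPM of the 10 feedback genes, against 62.9 to 77.0 CPM in the DMSO wells. Under NNK the 2 such CDKN2A wells held 41.5 and 42.8 CPM, close to the 43.5 CPM of the single 1-digit well and below every DMSO well. Under BaP the 2 such wells held 24.2 and 28.3 CPM in HcRed cells, where the 1-digit well held 44 CPM, and 17.4 and 19.2 CPM in FGFR1 cells, where the 1-digit well held 24.3 CPM. In replicate 2 of NRG1 under NNK, DUSP4 was at 21 CPM, DUSP5 at 14.2 CPM and PHLDA1 at 23.1 CPM, against at most 9.49, 2.48 and 8.26 CPM in the other two wells. What sets these wells apart was not tested.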
